A study of Arabidopsis thaliana with 10 samples.

Results

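MORF2OX, an Arabidopsis thaliana line that overexpresses MORF2, was grown on the herbicide norflurazon and set against untreated wild type, to ask which transcripts stood at the untreated level in herbicide-treated plants of this line and which stayed far from it. The 4 RNA-seq libraries are 2 of MORF2OX on 5 µM norflurazon (MORF2OX NF) and 2 of wild type Col6-3 without it (Col6-3 LS), of 10 in the series. All 5-day-old seedlings came from the Col6-3 background and grew at 22 °C on Linsmaier and Skoog medium in unbroken light of 100 µmol per square metre and second. Each library was made with a stranded poly(A) kit from 500 ng of RNA of more than 100 pooled whole seedlings of 1 genotype. The series also holds, on the same herbicide dose, wild type (Col6-3 NF), the mutant gun1-9 and MORF2OX(w), a second overexpression line whose phenotype differs in strength. The promoter of the transgene is not given in the sources used here, and neither is whether the replicates were grown apart, so p-values measure the spread between these libraries, which may be technical. Genotype and treatment differ together in the main comparison, and untreated MORF2OX was not analysed here, so a fold below cannot be divided into a part from the line and a part from the herbicide. Col6-3 NF is given between the other groups to show where wild type stood on the herbicide. Its comparison with Col6-3 LS uses the same untreated libraries, so the values of both are set side by side and not correlated.

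Norflurazon blocks phytoene desaturase, a step of carotenoid synthesis. Without carotenoids chlorophyll is not protected from light, chloroplasts are bleached, and signals from the damaged plastid lower the transcripts of many nuclear genes for photosynthesis. Seedlings in which these transcripts stay higher on norflurazon are known as genomes uncoupled (gun), after mutants such as gun1, which lacks a plastid pentatricopeptide repeat protein. MORF2 is a plastid protein of the family of multiple organellar RNA editing factors, which act in the conversion of C to U in organelle transcripts.

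Library totals were 25220815 and 25056558 counts in MORF2OX NF and 21024333 and 22407221 counts in Col6-3 LS. Levels are counts scaled to the library's TMM-adjusted size (CPM), and compare 1 gene between libraries, not genes of different length. MORF2 itself, a check of the labels, had 7969 and 7248 CPM in MORF2OX NF, 99.7 and 105 CPM in Col6-3 NF and 90.8 and 99.6 CPM in Col6-3 LS. Its log2 fold change between MORF2OX NF and Col6-3 LS was 6.32 ± 0.16 (approximate standard error), and reads of the transgene and of the resident gene were not told apart. The kit marks strand, but the strand setting of the counting is not given in the sources used here, so a gene that overlaps another on the opposite strand is uncertain. Among genes named below these are ASN1, AT1G64600, AT4G01390, BBX14, BCAT2, BCH2, CHS, DIN10, DIN3, EMB2729, FLU, FTSH2, GUN4, HY2, KAT5, KNOLLE, LHCA4, LHCA5, LHCB1.3, LUX, MCCA, MORF4, MYC2, NRT1.5, PORB, PSAH2, PSBR, PSY, PWP2, RCA, SIG4 and TT19. Within MORF2OX NF the replicates had a Spearman correlation of 0.9955 across genes and within Col6-3 LS 0.9943. TMM factors were 0.9999 and 0.9965 in MORF2OX NF and 0.7223 and 0.7963 in Col6-3 LS. The 50 most abundant nuclear genes of Col6-3 LS took 8.59% and 7.73% of all counts in MORF2OX NF, 3.01% and 2.89% in Col6-3 NF and 27.8% and 26.0% in Col6-3 LS.

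Of 33602 genes listed, 20628 had enough counts to be tested. In MORF2OX NF 8743 genes, 42.4% of those tested, lay within 2-fold of the level in Col6-3 LS by an equivalence test, which asks whether a change of 2-fold in either direction can be rejected. Another 5124 genes (24.8%) were over 2-fold away by a test against that same margin, 2325 of them higher (11.3%) and 2799 lower (13.6%). The other 6761 genes passed neither test and are called undecided. By the plain test of a difference (edgeR quasi-likelihood, adjusted p under 0.05), 13648 genes changed (66.2%), 6429 higher (31.2%) and 7219 lower (35.0%), so a gene could both change and lie within 2-fold. For Col6-3 NF against Col6-3 LS the same rules called 13412 genes changed (65.0%), 10.3% over 2-fold higher, 14.0% over 2-fold lower and 42.6% within 2-fold. The balance of directions rests on the scaling. With library totals in place of TMM factors the changed genes of the main comparison were 9475 higher and 4655 lower (67.1% higher, against 47.1% with TMM), those over 2-fold away were 3585 higher and 1912 lower (65.2% higher, against 45.4%), and the median log2 fold change of all genes was 0.35 in place of -0.04. For Col6-3 NF against Col6-3 LS 78.5% of the changed genes were higher with library totals, against 47.0% with TMM. Every fold below is a TMM fold, and lists whose counts moved by more than 1.5 times with library totals are given with both. List counts below are to be read beside the shares of all tested genes, 42.4% within 2-fold, 11.3% over 2-fold higher and 13.6% over 2-fold lower.

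The share of genes that stayed low was highest among those that untreated seedlings expressed most, though most genes over 2-fold lower had lower levels: 87 of the 2799 were at 1000 CPM or more in Col6-3 LS and 384 between 100 and 1000 CPM. Of the 130 genes at 1000 CPM or more in Col6-3 LS, 66.9% were over 2-fold lower in MORF2OX NF, 1.54% over 2-fold higher and 20.8% within 2-fold. Of the 1902 genes between 100 and 1000 CPM 20.2% were over 2-fold lower. Of the 10044 genes between 10 and 100 CPM, 11.6% were over 2-fold lower, 6.12% over 2-fold higher and 58.7% within 2-fold. Between 1 and 10 CPM the share over 2-fold lower was larger again, 17.5% of 6157 genes, so it did not rise steadily with the level. Below 1 CPM, where the equivalence test has few counts, 35.1% of 2395 genes were over 2-fold higher and 0.71% within 2-fold. Among the 50 most abundant genes of Col6-3 LS, 41 were over 2-fold lower, 4 within 2-fold and 5 undecided. The untreated level is also the denominator of the fold, so these shares are a description and were not tested.

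**Figure D1:**
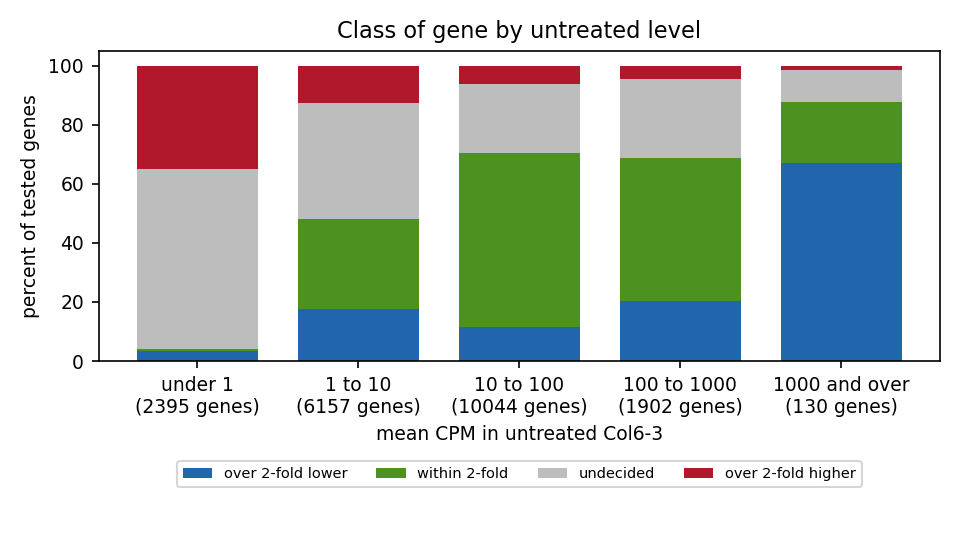
Percent of tested genes (y axis) that were over 2-fold lower, within 2-fold, undecided or over 2-fold higher in MORF2OX NF, by the mean CPM in Col6-3 LS (x axis, 5 ranges with the number of genes). The share over 2-fold lower is 66.9% at 1000 CPM and over, and the share within 2-fold is highest, 58.7%, from 10 to 100 CPM.

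The light-harvesting antenna, the chlorophyll-binding proteins that feed both photosystems, stayed farthest below the untreated level among the lists of photosynthesis genes. All 20 antenna genes were over 2-fold lower in MORF2OX NF, with a median log2 fold change of -4.65, where the median of all tested genes was -0.04. Their summed level was 6499 and 6215 CPM in MORF2OX NF, 1750 and 1256 CPM in Col6-3 NF and 147600 and 130000 CPM in Col6-3 LS, so the sum in MORF2OX NF was 4.58% of the untreated one and that in Col6-3 NF 1.08%. LHCB1.3, the most abundant of them in untreated plants, had 1085 and 826 CPM in MORF2OX NF, 291 and 178 CPM in Col6-3 NF and 36150 and 31910 CPM in Col6-3 LS (log2 fold change to untreated -5.15 ± 0.25). LHCB1.4 lay farthest away, with 6.94 and 4.49 CPM in MORF2OX NF, 0.251 and 0.178 CPM in Col6-3 NF and 8982 and 9194 CPM in Col6-3 LS (-10.63 ± 0.24). No library of 1 group overlapped those of another in either gene. The nearest member was LHCA5, an antenna gene of photosystem I with low levels, at 129 and 118 CPM in MORF2OX NF, 92.1 and 67.9 CPM in Col6-3 NF and 326 and 282 CPM in Col6-3 LS (-1.30 ± 0.15), a call lost under most alternatives (adjusted p from 0.0537 to 1). In the test at equal treatment, MORF2OX NF against Col6-3 NF, 19 of the 20 were higher (18 with library totals), where 19.3% of all tested genes were higher and 14.1% lower. Over all genes that balance also rests on the scaling, with 57.9% of the changed genes higher by TMM and 18.0% by library totals. Between these groups 6886 genes changed, and the fit without MORF2OX NF replicate 2 called 3320. LHCB4.3 was the exception, at 14.8 and 11.2 CPM in MORF2OX NF and 14.7 and 11.9 CPM in Col6-3 NF. LHCB1.1, LHCB1.2 and LHCB1.3 are near-identical copies, so the division of reads among them is uncertain. In RNA of whole seedlings, fewer cells of a type and less RNA per cell cannot be told apart.

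Promoters of 6 genes are printed because they stand for the ends and the middle of the range: LHCB1.3 and LHCA4 stayed far below untreated, GAPA1 came within 2-fold, and ASN1, BCAT2 and SEN1, described further on, stayed far above. Each line holds the 200 bases before the annotated gene start of the TAIR10.1 reference, 5′ to 3′ on the gene's strand, from chr1:10477685-10477884 (+) for LHCB1.3, chr3:17495034-17495233 (-) for LHCA4, chr3:9794662-9794861 (+) for GAPA1, chr3:17441432-17441631 (-) for ASN1, chr1:3287887-3288086 (+) for BCAT2 and chr4:16944678-16944877 (+) for SEN1. Capitals mark matches on either strand to the G-box CACGTG, to the I-box core GATAAG and to the element TATCCA, and a match on the other strand reads as the reverse complement.
LHCB1.3: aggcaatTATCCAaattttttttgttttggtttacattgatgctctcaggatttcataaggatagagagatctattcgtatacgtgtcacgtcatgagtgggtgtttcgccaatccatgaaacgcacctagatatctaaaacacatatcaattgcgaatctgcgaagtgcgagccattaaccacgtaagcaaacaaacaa
LHCA4: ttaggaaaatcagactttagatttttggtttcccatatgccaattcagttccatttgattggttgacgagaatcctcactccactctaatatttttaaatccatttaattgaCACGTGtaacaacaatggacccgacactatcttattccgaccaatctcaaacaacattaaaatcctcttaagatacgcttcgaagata
GAPA1: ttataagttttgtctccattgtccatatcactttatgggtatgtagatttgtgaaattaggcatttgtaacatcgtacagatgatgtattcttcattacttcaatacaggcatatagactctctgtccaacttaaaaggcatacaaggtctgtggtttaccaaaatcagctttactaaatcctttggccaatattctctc
ASN1: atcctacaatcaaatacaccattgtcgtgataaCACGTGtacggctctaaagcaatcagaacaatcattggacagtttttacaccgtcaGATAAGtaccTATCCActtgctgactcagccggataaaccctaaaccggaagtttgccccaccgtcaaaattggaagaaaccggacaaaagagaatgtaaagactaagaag
BCAT2: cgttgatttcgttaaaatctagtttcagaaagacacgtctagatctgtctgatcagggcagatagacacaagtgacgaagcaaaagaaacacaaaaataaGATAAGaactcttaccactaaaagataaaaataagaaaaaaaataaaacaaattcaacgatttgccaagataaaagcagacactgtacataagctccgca
SEN1: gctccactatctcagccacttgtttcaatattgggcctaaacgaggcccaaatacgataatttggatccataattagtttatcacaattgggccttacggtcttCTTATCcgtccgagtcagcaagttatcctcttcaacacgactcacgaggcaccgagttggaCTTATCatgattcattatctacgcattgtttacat
The G-box of LHCA4 lies at -88 to -83 from the gene start and that of ASN1 at -167 to -162. GATAAG lies at -111 to -106 in ASN1 and -100 to -95 in BCAT2, and its reverse complement at -96 to -91 and -35 to -30 in SEN1. TATCCA lies at -193 to -188 in LHCB1.3 and -101 to -96 in ASN1, and these letters are in no place of the GAPA1 window. Of 20495 such windows of tested genes, 6.42% held CACGTG, 10.2% GATAAG and 11.3% TATCCA. The G-box, CACGTG, was in 4 of 20 antenna promoters and 4 of 12 of photosystem II, and TATCCA in 7 of 20 antenna promoters. Among all genes over 2-fold lower, 8.18% held CACGTG and 11.2% TATCCA. Lists outside photosynthesis held these letters too, CACGTG in 4 of 13 clock promoters and TATCCA in 5 of 10 of the regulators of plastid and light signalling. GATAAG was in 7 of 12 promoters of the sugar starvation genes, those of BCAT2, DIN9, TPS8, TPS11, DIN3, ASN1 and SEN1, and in 13.6% of all genes over 2-fold higher. The windows shown from that list are all among these 7. Lists that stayed low held GATAAG too, in 5 of 14 promoters of electron carriers and ATP synthase and 4 of 12 of photosystem I. Among all genes over 2-fold lower the share was 9.73%. GATAAG and TATCCA can share 4 bases where they meet on opposite strands, which no window shown here holds. The windows shown were chosen after the values were seen, and a match describes letters and not a site in use.

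The subunits of the photosystems held the same order of groups. All 12 photosystem I genes and all 12 photosystem II genes were over 2-fold lower in MORF2OX NF than in Col6-3 LS, with medians of -3.45 and -2.38. The photosystem I genes summed to 3907 and 3785 CPM in MORF2OX NF, 937.5 and 761.1 CPM in Col6-3 NF and 38650 and 33650 CPM in Col6-3 LS. PSAH2, a small subunit of photosystem I, had 72.8 and 68.7 CPM in MORF2OX NF, 17.5 and 13.7 CPM in Col6-3 NF and 2057 and 1732 CPM in Col6-3 LS (-4.74 ± 0.16). PSBR, a subunit near the oxygen-evolving complex, was nearest to untreated among the photosystem II genes, at 2469 and 2565 CPM in MORF2OX NF, 1208 and 938 CPM in Col6-3 NF and 7221 and 6191 CPM in Col6-3 LS (-1.41 ± 0.15, a call lost with library totals, in a fit of the 4 libraries alone and without Col6-3 LS replicate 1). PSBO1, which stabilises the manganese cluster of water splitting, had 2832 and 2638 CPM in MORF2OX NF, 965 and 746 CPM in Col6-3 NF and 10240 and 8920 CPM in Col6-3 LS (-1.81 ± 0.15). Against Col6-3 NF, 12 of 12 photosystem I genes and 11 of 12 photosystem II genes were higher in MORF2OX NF.

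Electron carriers and ATP synthase subunits were less far away. Of 14 genes 10 were over 2-fold lower in MORF2OX NF, 2 were within 2-fold and the median was -1.86. PETE1, the minor plastocyanin gene, had 17.2 and 17.4 CPM in MORF2OX NF, 3.39 and 2.35 CPM in Col6-3 NF and 348 and 309.6 CPM in Col6-3 LS (-4.25 ± 0.15), while PETE2, the major one, had 1382 and 1324 CPM in MORF2OX NF, 609 and 367 CPM in Col6-3 NF and 7269 and 5911 CPM in Col6-3 LS (-2.28 ± 0.21). The 2 genes within 2-fold were PGRL1B, a component of cyclic electron flow, and PETM, a small subunit of the cytochrome b6f complex. PETM had 832 and 827 CPM in MORF2OX NF, 243 and 228 CPM in Col6-3 NF and 1432 and 1278 CPM in Col6-3 LS. The call of PETM was lost without Col6-3 LS replicate 2 (equivalence adjusted p = 0.119) and without either library of MORF2OX NF (0.114 and 0.0965) or of MORF2OX(w) NF (0.055 for each).

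Carbon fixation was nearer still, and divided within the pathway. Of 20 Calvin cycle genes, all of which were lower in MORF2OX NF than in Col6-3 LS, 14 were over 2-fold lower, 3 undecided and 3 within 2-fold, with a median of -1.61. With library totals 9 were over 2-fold lower and 4 within 2-fold. The summed level was 46200 and 40560 CPM in MORF2OX NF, 11440 and 11260 CPM in Col6-3 NF and 122600 and 101200 CPM in Col6-3 LS. RBCS1A, the main gene of the Rubisco small subunit, had 14620 and 12560 CPM in MORF2OX NF, 3816 and 4262 CPM in Col6-3 NF and 32480 and 28310 CPM in Col6-3 LS (-1.16 ± 0.15, undecided). RBCS2B had 144 and 82.8 CPM in MORF2OX NF, 16.7 and 10.1 CPM in Col6-3 NF and 6644 and 5299 CPM in Col6-3 LS (-5.72 ± 0.31), so 2 genes for the same subunit stood at very different distances, with the reservation that RBCS1B, RBCS2B and RBCS3B share near-identical sequence. RCA, Rubisco activase, had 11060 and 10330 CPM in MORF2OX NF, 2288 and 2097 CPM in Col6-3 NF and 26460 and 20850 CPM in Col6-3 LS (-1.15 ± 0.15, undecided). GAPA1, a subunit of plastid glyceraldehyde 3-phosphate dehydrogenase, reached the 2-fold margin, with 3354 and 3151 CPM in MORF2OX NF, 731 and 703 CPM in Col6-3 NF and 4858 and 3964 CPM in Col6-3 LS (-0.44 ± 0.13, equivalence adjusted p = 0.00257). Its paralogue GAPA2 had 1137 and 964 CPM in MORF2OX NF, 267 and 249 CPM in Col6-3 NF and 4572 and 3890 CPM in Col6-3 LS and stayed over 2-fold lower (-2.01 ± 0.14). The other genes within 2-fold were RPE, ribulose phosphate epimerase, and CP12-1, a regulator of the cycle. Both calls were lost without Col6-3 LS replicate 2 or MORF2OX NF replicate 1, and that of RPE also without MORF2OX NF replicate 2 or either MORF2OX(w) NF library (equivalence adjusted p from 0.0546 to 0.139). All 20 genes were higher in MORF2OX NF than in Col6-3 NF.

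CA1, the main plastid carbonic anhydrase, was nearly absent from herbicide-treated wild type. It had 2315 and 1636 CPM in MORF2OX NF, 6.07 and 5.13 CPM in Col6-3 NF and 13730 and 10520 CPM in Col6-3 LS. Both MORF2OX NF libraries lay above both Col6-3 NF libraries and below both untreated ones, with a log2 fold change of -2.62 ± 0.19 to untreated and 8.46 ± 0.26 to Col6-3 NF.

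**Figure D2:**
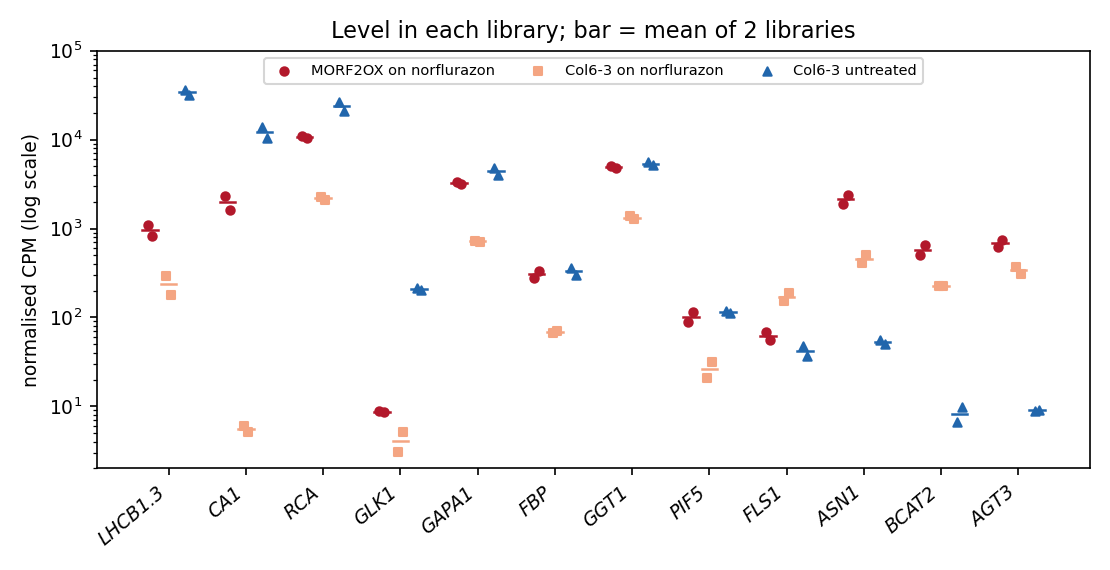
Normalised CPM (y axis, log scale) of 12 genes (x axis) in each of 6 libraries: MORF2OX NF (circles), Col6-3 NF (squares) and Col6-3 LS (triangles), with a bar at the mean of 2 libraries. LHCB1.3, CA1, RCA and GLK1 lie below the untreated level in MORF2OX NF, GAPA1, FBP, GGT1, PIF5 and FLS1 lie within 2-fold of it, and ASN1, BCAT2 and AGT3 lie above it.

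Photorespiration, the salvage of the product of Rubisco's oxygenase reaction in chloroplasts, peroxisomes and mitochondria, had members on both sides of the margin. Of 12 genes, 4 lay within 2-fold of untreated, 4 were over 2-fold lower and 4 undecided, with a median of -0.66. The share within 2-fold, 33.3%, was below the 42.4% of all tested genes. GGT1, a peroxisomal glutamate:glyoxylate aminotransferase, had 5028 and 4845 CPM in MORF2OX NF, 1371 and 1276 CPM in Col6-3 NF and 5598 and 5152 CPM in Col6-3 LS (-0.12 ± 0.12, equivalence adjusted p = 1.28e-04). GLYK, the plastid glycerate kinase that closes the cycle, had 947 and 1073 CPM in MORF2OX NF, 432 and 466 CPM in Col6-3 NF and 648 and 543 CPM in Col6-3 LS, and rose above the untreated level (log2 fold change 0.76 ± 0.13, edgeR adjusted p = 2.74e-04). SHM1, the mitochondrial serine hydroxymethyltransferase, stayed over 2-fold lower, with 1748 and 1618 CPM in MORF2OX NF, 616 and 469 CPM in Col6-3 NF and 5303 and 4473 CPM in Col6-3 LS (-1.54 ± 0.16, adjusted p = 0.172 with library totals). All 12 genes were higher in MORF2OX NF than in Col6-3 NF.

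Tetrapyrrole synthesis makes chlorophyll, haem and bilins from a common start. Of 30 tested genes 24 were lower in MORF2OX NF than in Col6-3 LS, 2 higher, 16 over 2-fold lower and 6 within 2-fold, with a median of -1.40. With library totals 4 were higher, 11 over 2-fold lower and 11 within 2-fold, and without MORF2OX NF replicate 2 1 was higher. PORB, which reduces protochlorophyllide in the light, was the farthest, with 18.4 and 13.9 CPM in MORF2OX NF, 17.8 and 15.6 CPM in Col6-3 NF and 617 and 549.7 CPM in Col6-3 LS (-5.17 ± 0.16). Its libraries of the herbicide-treated groups overlapped, and its difference between them was -0.04 ± 0.15 (adjusted p = 0.84). GUN5, a subunit of magnesium chelatase, had 1221 and 1056 CPM in MORF2OX NF, 355 and 345 CPM in Col6-3 NF and 5336 and 4107 CPM in Col6-3 LS (-2.05 ± 0.15). GUN4, its activator, had 77.4 and 64.9 CPM in MORF2OX NF, 45.2 and 32.0 CPM in Col6-3 NF and 642 and 528 CPM in Col6-3 LS (-3.04 ± 0.17). CHLD, another subunit of the same enzyme, was within 2-fold at 334 and 302 CPM in MORF2OX NF, 190.4 and 184 CPM in Col6-3 NF and 383 and 351 CPM in Col6-3 LS (-0.21 ± 0.11). Genes of the haem and bilin branch lay on both sides. FC2, ferrochelatase 2, was over 2-fold lower (-1.92 ± 0.13, adjusted p = 0.0583 with library totals). HY1 and HY2, which act toward the bilins, lay within 2-fold, as did HEMG2 and HEMB1 of the common part and FLU, a repressor of its start, though HY2 and HEMB1 lost the call without Col6-3 LS replicate 2 or MORF2OX NF replicate 1, and HEMB1 also without MORF2OX NF replicate 2 (adjusted p from 0.0658 to 0.158).

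Carotenoid synthesis, which holds the target of the herbicide, was near the untreated level at its target. PDS, phytoene desaturase, had 165 and 154 CPM in MORF2OX NF, 88.9 and 96.2 CPM in Col6-3 NF and 231 and 199 CPM in Col6-3 LS (-0.43 ± 0.12, within 2-fold). PSY, phytoene synthase, the entry step, was over 2-fold lower, with 181 and 158 CPM in MORF2OX NF, 76.1 and 78.7 CPM in Col6-3 NF and 831 and 720.5 CPM in Col6-3 LS (-2.19 ± 0.13). The paralogues of beta-carotene hydroxylase parted: BCH1 had 172 and 154 CPM in MORF2OX NF, 61.7 and 61.1 CPM in Col6-3 NF and 149 and 137 CPM in Col6-3 LS (0.19 ± 0.11, within 2-fold). BCH2 had 6.70 and 6.89 CPM in MORF2OX NF, 1.17 and 0.998 CPM in Col6-3 NF and 113 and 100.5 CPM in Col6-3 LS (-3.97 ± 0.12). Of 14 genes, 7 were within 2-fold (11 with library totals), 3 over 2-fold lower and 11 lower by the plain test (5 with library totals), with a median of -0.63. Against Col6-3 NF 13 of the 14 were higher in MORF2OX NF (9 with library totals), and of the tetrapyrrole genes 22 of 30 (17 with library totals, and 2 lower).

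**Figure D3:**
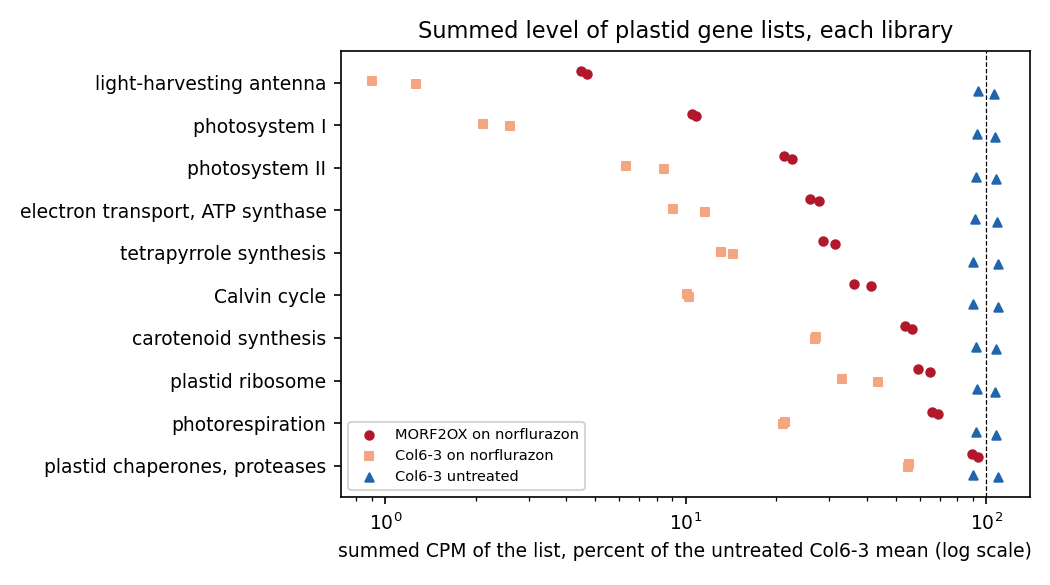
Summed CPM of 10 gene lists (rows) in each library as a percent of the mean of both Col6-3 LS libraries (x axis, log scale): MORF2OX NF (circles), Col6-3 NF (squares) and Col6-3 LS (triangles). In MORF2OX NF the sums run from 4.58% of untreated for the antenna to 92.0% for plastid chaperones and proteases, and each list is lower in Col6-3 NF.

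The machinery that builds and maintains the plastid lay nearer to untreated than the photosynthetic apparatus. By edgeR, none of 29 nuclear genes for plastid ribosomal proteins was over 2-fold away in MORF2OX NF (2 at an unadjusted p under 0.05 and 0 by DESeq2), while 26 were lower by the plain test and 10 lay within 2-fold (median -0.79). With library totals 17 were lower and 25 lay within 2-fold, and without either Col6-3 LS replicate 2 or MORF2OX NF replicate 1 the counts were 6 within 2-fold and 1 over 2-fold lower. RPL35 had 223 and 190.1 CPM in MORF2OX NF, 119 and 94.3 CPM in Col6-3 NF and 539 and 449 CPM in Col6-3 LS (-1.26 ± 0.14), the largest distance of the 29. RPS9 had 394 and 385 CPM in MORF2OX NF, 202 and 196 CPM in Col6-3 NF and 378 and 328 CPM in Col6-3 LS (0.14 ± 0.11, within 2-fold). Among 17 plastid chaperones and proteases 13 lay within 2-fold and, by edgeR, none was over 2-fold away (1 at an unadjusted p under 0.05, 0 by DESeq2, median -0.03, but 0.37 with library totals and 0.12 without Col6-3 LS replicate 1, changes of sign). Without Col6-3 LS replicate 2 1 of the 17 was over 2-fold lower. Their summed level was 8369 and 7996 CPM in MORF2OX NF, 4869 and 4932 CPM in Col6-3 NF and 9762 and 8027 CPM in Col6-3 LS. CLPC1, the main Clp chaperone of the stroma, had 1942 and 1932 CPM in MORF2OX NF, 923 and 1019 CPM in Col6-3 NF and 2011 and 1632 CPM in Col6-3 LS (0.09 ± 0.13). FTSH2, a thylakoid protease that removes damaged photosystem II protein, had 994 and 1002 CPM in MORF2OX NF, 369.9 and 464 CPM in Col6-3 NF and 1263 and 1023 CPM in Col6-3 LS (-0.20 ± 0.16). The MORF2OX NF libraries lay between the untreated ones in CLPC1 and just under them in FTSH2, and the Col6-3 NF libraries lay below in both.

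Most genes of plastid transcription lay near the untreated level, and most import genes at or above it. Of 22 genes for plastid transcription 14 lay within 2-fold. SIG1, a sigma factor of the plastid-encoded polymerase, was over 2-fold lower, at 132 and 124 CPM in MORF2OX NF, 64.5 and 54.9 CPM in Col6-3 NF and 441 and 409.9 CPM in Col6-3 LS (-1.73 ± 0.13). RPOTP, the phage-type RNA polymerase of the plastid, was over 2-fold higher, at 102 and 102 CPM in MORF2OX NF, 99.3 and 113 CPM in Col6-3 NF and 34.4 and 34.6 CPM in Col6-3 LS (1.56 ± 0.11), with the groups on norflurazon overlapping. SIG3 and SIG4 reached untreated: SIG4 had 46.6 and 44.3 CPM in MORF2OX NF, 28.0 and 20.7 CPM in Col6-3 NF and 43.9 and 44.5 CPM in Col6-3 LS (0.04 ± 0.13). Of 13 import genes 9 were higher in MORF2OX NF, 4 lower, 2 over 2-fold higher and 7 within 2-fold, with a median of 0.50. With library totals 1 was lower, 4 over 2-fold higher and 4 within 2-fold. Without Col6-3 LS replicate 1 1 was lower, without Col6-3 LS replicate 2 or either MORF2OX NF library 1 was over 2-fold higher, and without MORF2OX NF replicate 1 4 were within 2-fold. TIC20-IV, a paralogue of the inner envelope channel protein, had 14.0 and 16.5 CPM in MORF2OX NF, 30.2 and 25.4 CPM in Col6-3 NF and 2.77 and 2.41 CPM in Col6-3 LS (2.56 ± 0.17), whereas TIC20-I was undecided at -0.64 ± 0.24. The other 8 tested MORF genes lay within 2-fold of untreated. That count was 6 with library totals and without Col6-3 LS replicate 2 or MORF2OX NF replicate 1, and 7 without Col6-3 LS replicate 1, with MORF4 among those that lost the call each time. MORF8, a member found in plastids and mitochondria, had 94.8 and 95.8 CPM in MORF2OX NF, 159.7 and 162 CPM in Col6-3 NF and 112 and 119 CPM in Col6-3 LS (-0.27 ± 0.10), and MORF1, MORF4, MORF5, MORF6 and MORF8 were lower in MORF2OX NF than in Col6-3 NF by the plain test.

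**Figure D4:**
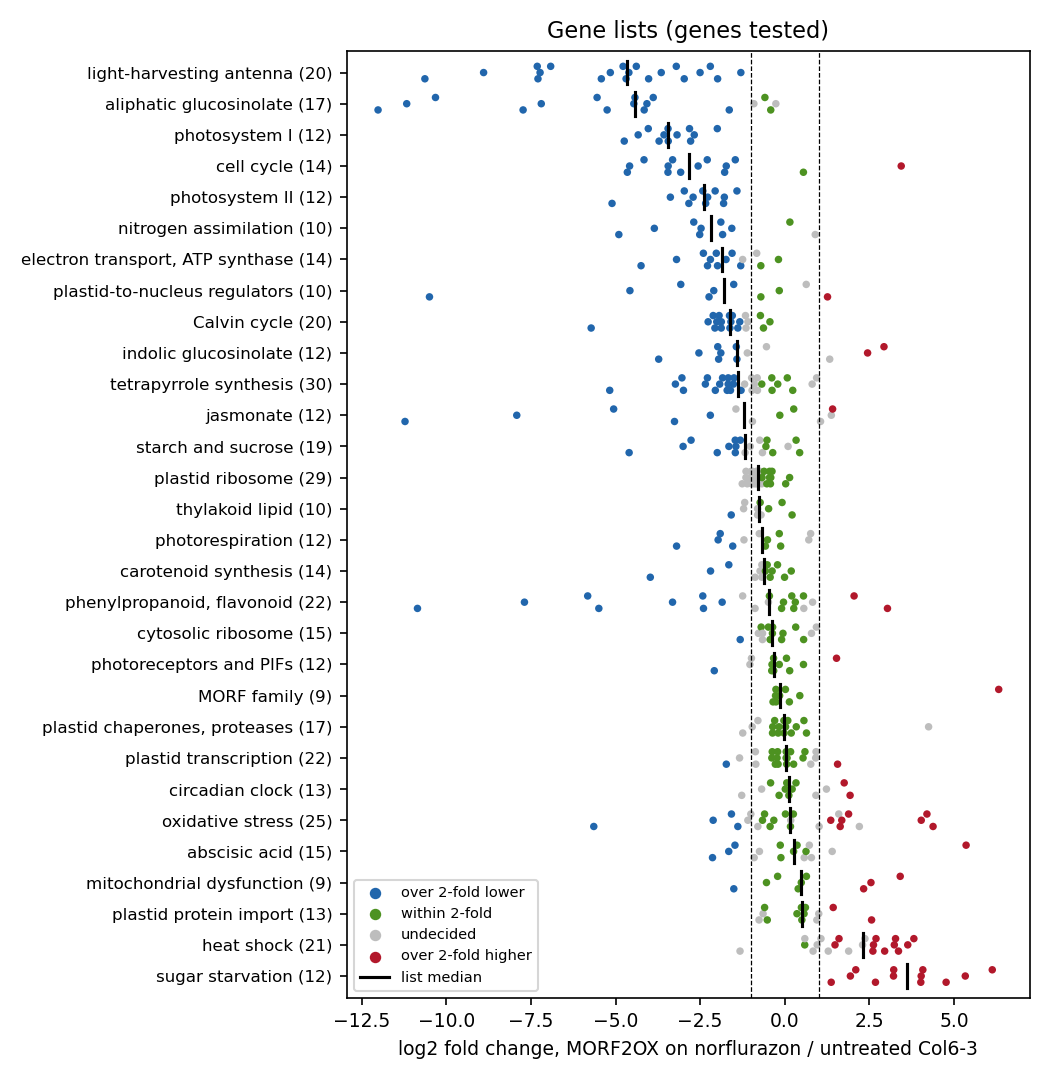
Log2 fold change of each tested member (points) of the gene lists (rows, with the number of members tested) between MORF2OX NF and Col6-3 LS (x axis), with points coloured by class, a black bar at each median and dashed lines at 2-fold in both directions. The antenna median is -4.65, that of the plastid chaperones and proteases -0.03 and that of the sugar starvation genes 3.62.

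Of 10 regulators of plastid and light signalling 6 were over 2-fold lower, 1 over 2-fold higher and 2 within 2-fold (1 without Col6-3 LS replicate 2 or either MORF2OX NF library), with a median of -1.80. GLK1, a factor that activates photosynthesis genes, had 8.81 and 8.65 CPM in MORF2OX NF, 3.06 and 5.13 CPM in Col6-3 NF and 214 and 203 CPM in Col6-3 LS (-4.58 ± 0.18), and its paralogue GLK2 was at -2.24 ± 0.12. Neither had libraries of MORF2OX NF that overlapped the untreated ones. All 4 B-box genes of the list, which encode factors of light signalling, were over 2-fold lower. BBX16 had 0.079 and 0.04 CPM in MORF2OX NF, 0 CPM in both Col6-3 NF libraries and 99.2 and 89.8 CPM in Col6-3 LS. From 3 counts in MORF2OX NF its level was 1570-fold lower, with a counting interval of 538 to 7640. BBX15 had 33.0 and 23.8 CPM in MORF2OX NF, 5.86 and 7.34 CPM in Col6-3 NF and 243 and 235 CPM in Col6-3 LS (-3.07 ± 0.16), and BBX14 was nearer at -1.51 ± 0.14 (over 2-fold adjusted p = 0.226 with library totals). GUN1 lay within 2-fold of untreated, at 417 and 469.7 CPM in MORF2OX NF, 191 and 284 CPM in Col6-3 NF and 538 and 455 CPM in Col6-3 LS (-0.16 ± 0.17). HY5, a factor of light signalling, was higher than in untreated plants, at 50.4 and 46.1 CPM in MORF2OX NF, 65.7 and 48.8 CPM in Col6-3 NF and 19.8 and 20.4 CPM in Col6-3 LS (1.26 ± 0.14). Its over 2-fold call was lost without any 1 library of MORF2OX NF, MORF2OX(w) NF or Col6-3 LS, and by DESeq2 (adjusted p from 0.0579 to 0.313). Of 12 photoreceptor and PIF genes 8 lay within 2-fold (median -0.33, or 0.07 with library totals). PIF5, a bHLH factor of shade and growth, reached untreated, with 88.5 and 116 CPM in MORF2OX NF, 20.6 and 31.5 CPM in Col6-3 NF and 117 and 112 CPM in Col6-3 LS (-0.16 ± 0.17). PIF4, its close relative, stayed over 2-fold lower, with 6.11 and 11.0 CPM in MORF2OX NF, 3.89 and 3.21 CPM in Col6-3 NF and 36.5 and 35.9 CPM in Col6-3 LS (-2.08 ± 0.22).

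The circadian clock had 7 of 13 genes within 2-fold and 2 over 2-fold higher (4 with library totals), shares near the 42.4% and 11.3% of all tested genes. By the plain test 5 were higher and 3 lower (9 and 1 with library totals, 4 and 1 without Col6-3 LS replicate 1). TOC1, an evening repressor, was over 2-fold higher, at 224 and 218 CPM in MORF2OX NF, 234 and 208 CPM in Col6-3 NF and 61.5 and 69.4 CPM in Col6-3 LS (1.75 ± 0.12). PRR7 was over 2-fold higher too, at 136 and 223 CPM in MORF2OX NF, 45.8 and 71.8 CPM in Col6-3 NF and 44.4 and 49.7 CPM in Col6-3 LS (1.93 ± 0.23). The PRR7 libraries of Col6-3 NF overlapped the untreated ones, and those of MORF2OX NF did not. LUX and RVE8 were within 2-fold at 0.01 ± 0.12 and 0.06 ± 0.12.

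Genes induced by darkness and sugar shortage stood above the untreated level, and were higher than in wild type on the same herbicide. All 12 were over 2-fold higher in MORF2OX NF, with a median log2 fold change of 3.62. The call of DIN9 was lost by DESeq2 (1.41, adjusted p = 0.106 for over 2-fold) and without MORF2OX NF replicate 2 (1.34). The sum of the 12 was 11150 and 12680 CPM in MORF2OX NF, 5236 and 6050 CPM in Col6-3 NF and 790.6 and 775.7 CPM in Col6-3 LS. ASN1, which makes asparagine as a nitrogen store, had 1906 and 2393 CPM in MORF2OX NF, 404 and 508 CPM in Col6-3 NF and 56.1 and 50.6 CPM in Col6-3 LS (5.33 ± 0.21 to untreated and 2.24 ± 0.18 to Col6-3 NF). BCAT2, a transaminase in the breakdown of branched-chain amino acids, had 502 and 646 CPM in MORF2OX NF, 226 and 226 CPM in Col6-3 NF and 6.59 and 9.70 CPM in Col6-3 LS (6.13 ± 0.20). The later steps of that pathway moved the same way, with 315 and 357 CPM of IVD in MORF2OX NF, 165 and 157 CPM in Col6-3 NF and 34.1 and 38.1 CPM in Col6-3 LS (3.22 ± 0.13), and 4.03 ± 0.14 for MCCA. SEN1, a senescence-associated gene of dark-treated leaves, had 1381 and 1554 CPM in MORF2OX NF, 700.1 and 492 CPM in Col6-3 NF and 56.1 and 51.8 CPM in Col6-3 LS (4.77 ± 0.18). DIN10, a raffinose synthase homologue, reached 5052 and 5488 CPM in MORF2OX NF, against 2631 and 3472 CPM in Col6-3 NF and 329 and 321 CPM in Col6-3 LS (4.02 ± 0.17). In none of the 5 genes given with CPM, chosen with their values known, did libraries of any pair of these groups overlap. The share of all tested genes without such overlap is not given here. Against Col6-3 NF all 12 were higher (10 with library totals).

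Starch and nitrogen assimilation stayed low. Of 19 genes of starch and sucrose metabolism 15 were lower in MORF2OX NF than in Col6-3 LS, 9 of them over 2-fold (5 with library totals), and 5 lay within 2-fold (median -1.17). GBSS1, granule-bound starch synthase, had 15.0 and 10.5 CPM in MORF2OX NF, 1.51 and 1.57 CPM in Col6-3 NF and 332 and 285 CPM in Col6-3 LS (-4.60 ± 0.17). SPS1F, a sucrose phosphate synthase, lay within 2-fold at 106 and 103 CPM in MORF2OX NF, 64.8 and 81.6 CPM in Col6-3 NF and 145 and 123 CPM in Col6-3 LS (-0.36 ± 0.14). Within 2-fold genes of this list fell to 3 without Col6-3 LS replicate 2 or without MORF2OX NF replicate 1. Of 10 nitrogen genes 8 were over 2-fold lower, among them both nitrate reductases. NIA2 had 1006 and 978 CPM in MORF2OX NF, 234 and 387 CPM in Col6-3 NF and 3974 and 3374 CPM in Col6-3 LS (-1.89 ± 0.20). NIR1, nitrite reductase, had 54.0 and 42.0 CPM in MORF2OX NF, 24.7 and 38.5 CPM in Col6-3 NF and 743 and 645 CPM in Col6-3 LS (-3.85 ± 0.21). GLN2, the plastid glutamine synthetase, was at -2.51 ± 0.17 and GLN1.1, a cytosolic form, at 0.90 ± 0.13.

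Heat shock genes rose above untreated in both groups on norflurazon. Of 21 genes 16 were higher in MORF2OX NF, 1 lower (0 without MORF2OX NF replicate 1) and 11 over 2-fold higher, with a median of 2.3, beside 2.56 and 12 over 2-fold higher for Col6-3 NF against the same untreated libraries. With 1 library of MORF2OX NF or Col6-3 LS left out, the list median in MORF2OX NF ran from 1.551 (without Col6-3 LS replicate 2) to 2.465 (without MORF2OX NF replicate 1). HSP26.5, HSP22.0 and HSP23.6 were near 0 in MORF2OX NF and Col6-3 LS, with 7, 9 and 12 counts over both MORF2OX NF libraries and 3, 1 and 2 counts over both Col6-3 LS libraries. These 3 genes were not tested in a fit of the 4 libraries alone. HSP90.1 had 84.7 and 83.0 CPM in MORF2OX NF, 62.5 and 70.1 CPM in Col6-3 NF and 8.70 and 7.68 CPM in Col6-3 LS (3.36 ± 0.13). HSP70-4 had 191 and 178 CPM in MORF2OX NF, 129 and 142 CPM in Col6-3 NF and 20.8 and 17.4 CPM in Col6-3 LS (3.27 ± 0.14). Small heat shock genes stayed at low levels: HSP17.6A had 3.05 and 4.77 CPM in MORF2OX NF, 1.76 and 1.53 CPM in Col6-3 NF and 0.395 and 0.168 CPM in Col6-3 LS (3.81 ± 0.44).

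Genes of oxidative stress moved in both directions, 9 of 25 higher and 11 lower, with 7 over 2-fold higher, 4 over 2-fold lower (2 with library totals) and 7 within 2-fold. The superoxide dismutases did not move together. FSD1, the main iron enzyme, had 27.4 and 28.0 CPM in MORF2OX NF, 18.3 and 18.4 CPM in Col6-3 NF and 1424 and 1343 CPM in Col6-3 LS (-5.64 ± 0.14). CSD2, the plastid copper and zinc enzyme, had 570.0 and 552 CPM in MORF2OX NF, 439 and 392 CPM in Col6-3 NF and 179.8 and 169.6 CPM in Col6-3 LS (1.68 ± 0.12), and CCS, the copper chaperone of these enzymes, was at 1.88 ± 0.13. ZAT12, a zinc finger factor of many stress responses, had 18.7 and 28.0 CPM in MORF2OX NF, 31.1 and 23.5 CPM in Col6-3 NF and 0.79 and 1.40 CPM in Col6-3 LS (4.38 ± 0.29). The 3 catalase genes lay within 2-fold, with CAT3 at 926 and 921 CPM in MORF2OX NF, 903 and 858 CPM in Col6-3 NF and 802 and 843 CPM in Col6-3 LS. Among 9 markers of mitochondrial dysfunction 5 lay within 2-fold (2 with library totals, 3 without Col6-3 LS replicate 1 or MORF2OX NF replicate 2) and 3 were over 2-fold higher. The remaining marker, 1 of the 9, was over 2-fold lower, a call lost with library totals and without Col6-3 LS replicate 1 or either MORF2OX NF library. AOX1A, the alternative oxidase, lay within 2-fold of untreated and below Col6-3 NF, with 34.6 and 37.8 CPM in MORF2OX NF, 80.3 and 73.0 CPM in Col6-3 NF and 55.3 and 50.1 CPM in Col6-3 LS (-0.54 ± 0.12 to untreated and -1.08 ± 0.12 to Col6-3 NF). UPOX, a mitochondrial stress marker, had 9.68 and 11.1 CPM in MORF2OX NF, 61.9 and 38.6 CPM in Col6-3 NF and 2.24 and 1.91 CPM in Col6-3 LS (2.33 ± 0.26).

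Most genes of the aliphatic branch of glucosinolate synthesis, the defence chemistry of the Brassicaceae, stayed low. Their sum was 251.1 and 233.7 CPM in MORF2OX NF, 211.1 and 217.1 CPM in Col6-3 NF and 671.7 and 631.3 CPM in Col6-3 LS, 37.2% of untreated in MORF2OX NF. Of 17 genes 13 were over 2-fold lower in MORF2OX NF than in Col6-3 LS and 2 lay within 2-fold (1 without Col6-3 LS replicate 2 or MORF2OX NF replicate 1), with a median of -4.43. CYP83A1, CYP79F1 and MYB29 had 0 counts in MORF2OX NF and in Col6-3 NF. Against a floor of 3 counts over the group, CYP83A1 was at least 382-fold lower in MORF2OX NF, with 23.7 and 22.1 CPM in Col6-3 LS, CYP79F1 at least 212-fold lower, with 13.6 and 11.9 CPM in Col6-3 LS (DESeq2 adjusted p = 0.202 for over 2-fold), and MYB29, a regulator of the branch, at least 120-fold lower, with 5.73 and 8.35 CPM in Col6-3 LS. MYB28, the other main regulator, was detected, at 5.63 and 2.92 CPM in MORF2OX NF, 5.07 and 5.45 CPM in Col6-3 NF and 74.1 and 78.5 CPM in Col6-3 LS (-4.15 ± 0.23). The indolic branch parted: 7 of 12 genes were over 2-fold lower and 2 over 2-fold higher. CYP79B2, which starts the branch from tryptophan, had 2.42 and 2.56 CPM in MORF2OX NF, 5.02 and 5.92 CPM in Col6-3 NF and 30.4 and 35.7 CPM in Col6-3 LS (-3.73 ± 0.17). IGMT1, which modifies the finished product, had 21.8 and 28.6 CPM in MORF2OX NF, 13.7 and 18.0 CPM in Col6-3 NF and 3.36 and 3.25 CPM in Col6-3 LS (2.93 ± 0.22).

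The flavonoid pathway divided along its course, and 15 of 22 genes were lower in MORF2OX NF than in Col6-3 NF (17 with library totals). Against Col6-3 LS 8 were over 2-fold lower, 2 over 2-fold higher and 7 within 2-fold, the last count falling to 4 without Col6-3 LS replicate 2 or without MORF2OX NF replicate 2. CHS, chalcone synthase, the first step, was over 2-fold above untreated, at 757 and 595 CPM in MORF2OX NF, 1220 and 1420 CPM in Col6-3 NF and 183 and 145 CPM in Col6-3 LS (2.05 ± 0.16). CHI, the second step, reached untreated, at 34.8 and 27.7 CPM in MORF2OX NF, 82.5 and 67.1 CPM in Col6-3 NF and 34.5 and 29.8 CPM in Col6-3 LS (-0.04 ± 0.14). FLS1, which leads to flavonols, was within 2-fold at 67.9 and 55.9 CPM in MORF2OX NF, 152 and 187 CPM in Col6-3 NF and 47.4 and 37.1 CPM in Col6-3 LS, a call lost with library totals and without Col6-3 LS replicate 1, MORF2OX NF replicate 2 or either gun1-9 NF library (equivalence adjusted p from 0.0503 to 0.66). The late genes toward anthocyanin stayed far below. LDOX had 0 counts in MORF2OX NF, 1.00 and 1.5 CPM in Col6-3 NF and 10.9 and 9.53 CPM in Col6-3 LS, at least 170-fold lower. DFR had 2 counts in MORF2OX NF, a ratio of 236-fold to untreated with a counting interval of 64.7 to 1950, and 1.00 and 2.03 CPM in Col6-3 NF against 9.22 and 9.53 CPM in Col6-3 LS. TT19, which carries anthocyanin to the vacuole, had 1.35 and 1.24 CPM in MORF2OX NF, 6.66 and 5.13 CPM in Col6-3 NF and 6.26 and 7.46 CPM in Col6-3 LS (-2.40 ± 0.26).

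Jasmonate synthesis stayed low in its plastid steps. LOX2, which oxygenates linolenic acid, had 0 and 0.12 CPM in MORF2OX NF, 0.084 and 0.142 CPM in Col6-3 NF and 170.1 and 142 CPM in Col6-3 LS. That is 2590-fold lower, with a counting interval of 885 to 12600. AOS, the next enzyme, had 5.24 and 4.93 CPM in MORF2OX NF, 5.53 and 5.74 CPM in Col6-3 NF and 187 and 152 CPM in Col6-3 LS (-5.06 ± 0.17), and AOC1 of the following step was at -3.26 ± 0.17. OPR3, the peroxisomal step, was undecided at -0.96 ± 0.13, and JAR1, which conjugates the hormone to isoleucine, was within 2-fold at -0.15 ± 0.12. MYC2, a regulator of the response, was higher at 45.4 and 57.5 CPM in MORF2OX NF, 35.8 and 58.6 CPM in Col6-3 NF and 18.1 and 20.5 CPM in Col6-3 LS (1.41 ± 0.20, a call over 2-fold that was lost without Col6-3 LS replicate 1, without MORF2OX NF replicate 2 and by DESeq2). Of 15 abscisic acid genes 5 lay within 2-fold (3 without Col6-3 LS replicate 2 or either MORF2OX NF library) and 3 were over 2-fold lower (1 with library totals and 1 without Col6-3 LS replicate 1 or MORF2OX NF replicate 1). CYP707A3, which breaks the hormone down, was over 2-fold higher, at 29.6 and 47.6 CPM in MORF2OX NF, 35.6 and 72.2 CPM in Col6-3 NF and 0.79 and 1.06 CPM in Col6-3 LS (5.36 ± 0.44).

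Cell division genes were farther from untreated in MORF2OX NF than in herbicide-treated wild type. Of 14 genes 12 were over 2-fold lower, with a median of -2.82 beside -1.72 for Col6-3 NF, and 9 were lower in MORF2OX NF than in Col6-3 NF (11 with library totals). CYCB1.2, a mitotic cyclin, had 0.912 and 0.521 CPM in MORF2OX NF, 3.77 and 2.35 CPM in Col6-3 NF and 17.7 and 18.6 CPM in Col6-3 LS (-4.65 ± 0.28). KNOLLE, a syntaxin of the division plane, had 2.34 and 1.40 CPM in MORF2OX NF, 7.70 and 4.78 CPM in Col6-3 NF and 33.6 and 33.5 CPM in Col6-3 LS (-4.16 ± 0.26). In both genes the groups stood in the same order with no overlap. CDKA1, a kinase present through the cycle, was within 2-fold with TMM (0.55 ± 0.11) and not with library totals. Of 9 genes of wall expansion 5 were over 2-fold lower (4 with library totals) and 3 over 2-fold higher. The call lost there was missing too under most other alternatives, among them DESeq2, no filter and the 4 libraries alone. EXPA8, an expansin, had 12.1 and 9.09 CPM in MORF2OX NF, 6.32 and 6.98 CPM in Col6-3 NF and 153 and 123 CPM in Col6-3 LS (-3.70 ± 0.16). XTH23, a xyloglucan endotransglycosylase, had 302 and 522 CPM in MORF2OX NF, 233 and 289 CPM in Col6-3 NF and 2.11 and 2.35 CPM in Col6-3 LS (7.52 ± 0.31). Of 10 genes of thylakoid lipids 8 were lower by the plain test, 1 over 2-fold (0 with library totals) and 4 within 2-fold, with FAD5, a plastid desaturase, at 462 and 522 CPM in MORF2OX NF, 178 and 132 CPM in Col6-3 NF and 563 and 477 CPM in Col6-3 LS (-0.08 ± 0.15).

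Genes that lay within 2-fold of untreated in MORF2OX NF while Col6-3 NF was over 2-fold away were picked by the size of the Col6-3 NF fold, so they are described with no count or test. From below came FBP, an inositol monophosphatase family protein, with 279.6 and 335 CPM in MORF2OX NF, 67.4 and 70.5 CPM in Col6-3 NF and 364 and 301 CPM in Col6-3 LS (-0.11 ± 0.15). FRO6, a leaf ferric reductase, had 106 and 109 CPM in MORF2OX NF, 15.8 and 24.8 CPM in Col6-3 NF and 151 and 120.4 CPM in Col6-3 LS (-0.34 ± 0.17). AT3G22060, a receptor-like kinase family protein, had 44.6 and 43.7 CPM in MORF2OX NF, 9.00 and 9.66 CPM in Col6-3 NF and 66.9 and 60.4 CPM in Col6-3 LS (-0.53 ± 0.12). The gap between the groups on norflurazon follows from how these genes were chosen. From above came AT4G23680, of the polyketide cyclase and lipid transport superfamily, with 55.1 and 51.4 CPM in MORF2OX NF, 183 and 167 CPM in Col6-3 NF and 54.1 and 53.8 CPM in Col6-3 LS (-0.02 ± 0.12). AT1G64600, annotated as a methyltransferase, had 5.79 and 6.41 CPM in MORF2OX NF, 18.3 and 17.5 CPM in Col6-3 NF and 6.39 and 6.11 CPM in Col6-3 LS (-0.03 ± 0.14). Of the 20 genes the rule gave, these 5 and GAPA1 kept the call under every change of scaling, filter, test, block or library in which they were tested, and the other 14 lost it under at least 1: PETM, TAS3, FRO7, AT1G72645, AT2G29300 and AT4G19530 from below, and PWP2, NRT1.5, AT2G40360, EMB2729, PHB1, FLS1, KAT5 and MYB111 from above.

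The genes with the largest folds above untreated were high in Col6-3 NF too. AT5G44417 had 63.5 and 86.5 CPM in MORF2OX NF, 35.5 and 32.5 CPM in Col6-3 NF and 0.132 and 0.224 CPM in Col6-3 LS (8.65 ± 0.27). BCB, a blue copper-binding protein, had 730.3 and 1118 CPM in MORF2OX NF, 379 and 382 CPM in Col6-3 NF and 4.81 and 2.63 CPM in Col6-3 LS (7.97 ± 0.31). AGT3, an alanine:glyoxylate aminotransferase, had 618 and 750.4 CPM in MORF2OX NF, 366 and 309 CPM in Col6-3 NF and 8.83 and 9.14 CPM in Col6-3 LS (6.25 ± 0.17). AT1G12010, a dioxygenase family gene, had 154 and 168 CPM in MORF2OX NF, 167 and 145 CPM in Col6-3 NF and 0.988 and 1.85 CPM in Col6-3 LS (6.79 ± 0.23), with the groups on norflurazon overlapping. UPB1, the factor UPBEAT of root growth, had 10.8 and 14.1 CPM in MORF2OX NF, 8.83 and 5.92 CPM in Col6-3 NF and 0.132 and 0.168 CPM in Col6-3 LS (6.31 ± 0.39). At the low end AT5G48490, a lipid transfer protein family gene, had 0.674 and 0.321 CPM in MORF2OX NF, 0.293 and 0.107 CPM in Col6-3 NF and 152 and 126 CPM in Col6-3 LS (-8.11 ± 0.25). AT4G01390, a TRAF-like family gene, had 0 counts in MORF2OX NF against 23.9 and 17.9 CPM in Col6-3 LS, at least 345-fold lower.

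Marker lists of the cell types of a seedling moved as well, and their part in the results above was not tested. Of 11 root markers 8 were higher in MORF2OX NF, 7 of them over 2-fold, and 3 lower (0 with library totals, 1 without either Col6-3 LS library), with a median of 2.66, and PIN2, an auxin carrier of root tips, had 20.2 and 17.6 CPM in MORF2OX NF, 20.3 and 28.3 CPM in Col6-3 NF and 1.38 and 4.43 CPM in Col6-3 LS. The summed level of the root list, which SCR leads, was 111.3 and 108.8 CPM in MORF2OX NF, 100.3 and 119.7 CPM in Col6-3 NF and 98.7 and 98.6 CPM in Col6-3 LS. All 8 guard cell markers were lower (3 over 2-fold, and 5 lower without Col6-3 LS replicate 1), as were 5 of 6 vascular (3 over 2-fold) and all 5 epidermal ones (1 over 2-fold, and 3 lower with library totals). The epidermal sum was 728.5 and 622.0 CPM in MORF2OX NF, 605.5 and 778.2 CPM in Col6-3 NF and 1715 and 1440 CPM in Col6-3 LS, and no tested marker of these lists was at 0 in MORF2OX NF, the lowest being VND7, a xylem factor, with 2 counts in all. The over 2-fold lower calls of the 8 seed storage genes rest on 1 untreated library. Their sum was 1.15 and 1.36 CPM in MORF2OX NF, 6.24 and 25.9 CPM in Col6-3 NF and 1.65 CPM in Col6-3 LS replicate 1 against 170.0 CPM in replicate 2. Without Col6-3 LS replicate 2 none of 8 was lower by edgeR (0 at an unadjusted p under 0.05 and 0 by DESeq2), and without either MORF2OX NF library none was called over 2-fold lower. Among 10 genes used as references in expression studies 7 lay within 2-fold (median -0.01, or 0.38 with library totals), but ACT8 was over 2-fold higher, at 1713 and 1594 CPM in MORF2OX NF, 2006 and 1846 CPM in Col6-3 NF and 317 and 315 CPM in Col6-3 LS (2.39 ± 0.13), and ACT2 was at 1.17 ± 0.12. Of 15 cytosolic ribosomal genes 9 lay within 2-fold (5 without Col6-3 LS replicate 2 or MORF2OX NF replicate 1), with a median of -0.37, or 0.03 with library totals.

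The distance from untreated was also set beside that of the other lines on norflurazon. Against gun1-9 NF, 17.1% of genes were higher and 18.1% lower in MORF2OX NF, 7271 in all and 4145 without gun1-9 NF replicate 2. All 20 antenna genes and all 12 photosystem I genes were lower in MORF2OX NF than in gun1-9 NF, with median log2 differences of -2.38 and -1.61. The heat shock genes summed to 515.9 and 476.9 CPM in MORF2OX NF and 3285 and 3160 CPM in gun1-9 NF, with no count of members given, since some had few counts outside gun1-9 NF. Of the 12 sugar starvation genes 9 were higher in MORF2OX NF than in gun1-9 NF (median 0.84). GLK1 had 8.81 and 8.65 CPM in MORF2OX NF and 104 and 101 CPM in gun1-9 NF, and GAPA1 had 3354 and 3151 CPM in MORF2OX NF and 2345 and 2564 CPM in gun1-9 NF. Most of the list of GAPA1 stood the other way. Of 20 Calvin cycle genes 13 were lower and 1 higher in MORF2OX NF than in gun1-9 NF (median -0.54). Against MORF2OX(w) NF 374 genes changed (1.81%), 309 higher and 65 lower, a count that fell to 0 by edgeR without MORF2OX(w) NF replicate 2 (1584 at an unadjusted p under 0.05 and 213 by DESeq2) and rose to 1548 without Col6-3 NF replicate 1.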

How the data were processed

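RNA was measured by single-end sequencing of stranded poly(A) libraries of Arabidopsis seedlings, 2 in each of 5 groups, with totals from 19018594 to 25220815 counts. Per the submitters' processing notes, the build was TAIR10 and the tools were edgeR, HTSeq 0.6.1, TopHat2 2.1.1 and Bowtie2 2.3.1. The deposited values are whole-number counts per gene as the authors made them, not normalized. Groups follow the sample titles.

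From these counts edgeR 4.0.16 (limma 3.58.1, R 4.3.3) fitted 5 group means over all 10 libraries with TMM factors, for the 20628 genes of 33602 that passed its expression filter (biological coefficient of variation 11.1%). Tests were the quasi-likelihood test for a change, glmTreat for over 2-fold away, and an equivalence test made of 2 one-sided quasi-likelihood tests for within 2-fold, each Benjamini-Hochberg adjusted over all genes tested at 0.05. A ± after a log2 fold change is an approximate standard error, the absolute log2 fold change divided by the square root of the quasi-likelihood F. Each group has n = 2. Counting intervals are 95% and cover counting error only, since reads have no molecular identifiers, and a floor is 3 counts over a group. The fits were tested on simulated data.

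The comparison and its 37 gene lists (538 genes, 529 tested) were chosen with earlier results of these data known. Genes were named by rule: MORF2 and GUN1, the 10 with the largest fold each way, the 10 each way within 2-fold that lay farthest in Col6-3 NF, the 2 nearest and 2 farthest of each list, and those over 10000 CPM. Genes that this rule named by fold or list place had at least 10 CPM in the higher group compared. Those with the largest folds were also called over 2-fold away, with no overlap between the groups' libraries. Organelle-encoded genes were left out of all but the lists. Further list members were named as examples after their values were seen. Not tested for low counts were PORA, ABI4, HSFB1, PAP2, MYB76, MYB122, NCED9, COR15A and SESA1. Promoters, gene positions, names and overlaps come from RefSeq TAIR10.1. Alternatives were DESeq2 1.42.0, library totals, no filter, 4 libraries alone, a replicate block, other thresholds and each library left out.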

Additional observations from a re-analysis of the deposited data

How the results depend on the processing

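The main counts of 13648 genes changed, 5124 over 2-fold away and 8743 within 2-fold stayed within 1.5 times under all alternatives but one. They were 12777, 3562 and 8328 by DESeq2, 14448, 5283 and 9433 with the 4 libraries alone (20051 genes tested), 14074, 5300 and 8880 without the filter (26020 genes tested), and 11192, 4086 and 6866 at an adjusted p under 0.01. With a margin of 1.5-fold in place of 2-fold, 8288 genes were farther than the margin and 2117 within it. With 1 library left out the counts ran from 11533 to 15294, from 4200 to 5617 and from 6966 to 9691. Where that leaves a group with 1 library, the lone library is assumed to vary like the others. Against Col6-3 NF 6886 genes changed, 3745 at an adjusted p under 0.01, and 3320 to 10050 with 1 library left out, the lowest without MORF2OX NF replicate 2. Against gun1-9 NF 7271 changed, 4498 at 0.01, and 4145 to 9875 with 1 library left out. Against MORF2OX(w) NF 374 changed, 870 without the filter, 67 at 0.01, 623 by DESeq2, and 0 to 1548 with 1 library left out, where edgeR's 0 stands beside 1584 genes at an unadjusted p under 0.05 and 213 by DESeq2. Replicate numbers did not pair the libraries (correlations of same-numbered deviations from -0.10 to 0.09), and with the replicate block 13618 genes changed, 5150 were over 2-fold away and 8745 within. Library totals moved the medians of 34 of 37 lists by more than the spread between replicates and changed the sign of 5 of them: plastid chaperones and proteases, the MORF family, photoreceptors and PIFs, the references and cytosolic ribosomes. For the genes named, 16 alternatives gave 3772 repeats, each scored on the call the gene had in the main fit. Undecided genes were scored on the plain test, so a 2-fold call that they gained was not counted. A reversal was scored only for genes changed or over 2-fold away, and none occurred. A within 2-fold gene could change sign unscored, as NRT1.5 did (-0.59 without Col6-3 LS replicate 1, 0.755 without Col6-3 LS replicate 2). By this scoring 2 repeats gained a plain-test call (HSP23.6, with library totals and without Col6-3 LS replicate 1). In 158 repeats the call was lost, most of them without Col6-3 LS replicate 2, with library totals (25) and without either MORF2OX NF library. The cause of these changes was not tested. Below 1 CPM, counts limit the equivalence test.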
